A study of Saccharomyces cerevisiae with 40 samples.

Results

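Untreated cells of 2 Saccharomyces cerevisiae strains, grown in the same medium, were compared across all annotated transcripts. The groups were S288c (labelled GSY147, a strain of the laboratory reference background) and RM11 (derived from a vineyard isolate), both untreated in WYF. WYF is the minimal medium YM, made of yeast nitrogen base and dextrose, with the aromatic amino acids tryptophan (W), tyrosine (Y) and phenylalanine (F) added. Members were chosen by label alone and comprised 10 of the 40 libraries of the series, 5 per strain. The other libraries held the same strains in YM or exposed to the glyphosate-based herbicide Credit41 (Cr41). Credit41 was given at 0.25% for 90 min, and the study asked how the strains differ in their response to it. RNA was extracted with hot phenol and sequenced as paired ends. The labels do not say whether replicates were separate cultures, so p-values measure the spread between these libraries.

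S288c and RM11 are a widely used pair for studying natural variation, because many of their genes differ in sequence and many in how much RNA they make. Several of these differences are textbook cases. In S288c the gene of the heme-responsive transcription factor Hap1 carries a Ty1 retrotransposon at its 3' end, and S288c harbours more Ty elements than most wild isolates. Hap1 binds upstream of genes for cytochromes, sterol synthesis and other oxygen-dependent functions.

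All reads, those of RM11 included, had been counted on S288c transcripts. A transcript low in RM11 can therefore be less expressed, absent from the RM11 genome or too different in sequence, and these cannot be told apart here. Levels are given as CPM, counts divided by a common library size after the totals were scaled by trimmed mean of M values (TMM) factors. Differences are log2 fold changes with their standard errors (SE) from edgeR's quasi-likelihood test, and a positive value is higher in RM11. A transcript is called when its adjusted p was under 0.05 and its fold change at least 2 (log2 of at least 1 in size).

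Of 5604 transcripts tested, 604 were called (10.8%), of which 275 were higher in RM11 (4.91%) and 329 lower (5.87%). Without a fold limit, 3033 transcripts (54.1%) passed the adjusted p, 1539 of them higher in RM11 and 1494 lower. The values of the strains did not overlap in 2326 transcripts (41.5%), among them 584 of the 604 called. The median log2 fold change over all tested was -0.00097. Large differences leaned to lower values in RM11, since at 4-fold or more there were 60 higher and 163 lower transcripts, 46 of the latter being ORFs of Ty elements. With limma on log2(TPM + 1) in place of edgeR, the split was 185 higher and 362 lower.

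**Figure D1:**
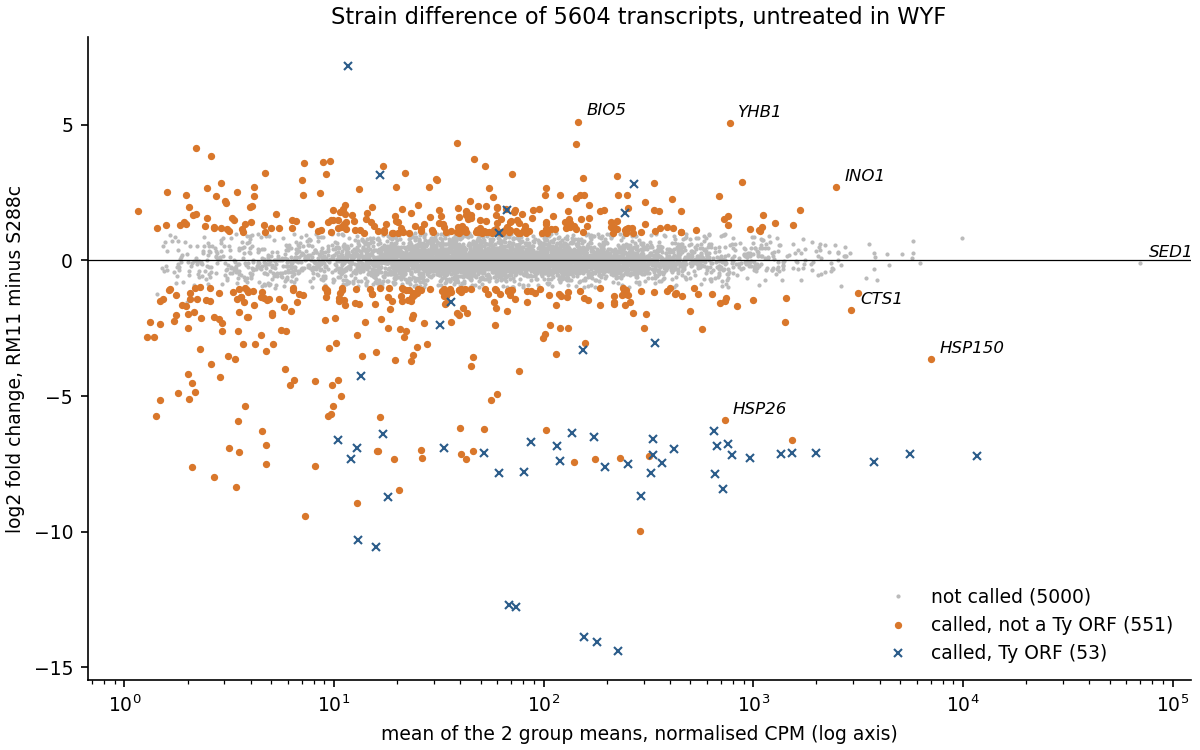
Mean of the group means (x axis, CPM, log axis) against the log2 fold change of RM11 over S288c (y axis), 1 point per transcript tested. The 551 called transcripts that are not Ty ORFs lie on both sides of 0, whereas most of the 53 called Ty ORFs lie far below it.

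Library totals ran from 4316137 to 7866046 counts in S288c and from 5226067 to 6663887 in RM11. Strain separated the libraries on the first principal component, which held 86% of the variance. S288c library 4 stood apart on the second component (3.75%), differing from the other S288c libraries by 26.9 to 49.41 chi-square units per degree of freedom, against 3.822 to 11.93 among those others. RM11 pairs differed by 4.724 to 9.468. S288c library 4 also had the shortest estimated mean fragment of the S288c libraries, 291 bases against 336.9 to 404.6. What sets it apart was not tested. Without S288c library 4 the test called 604 transcripts. Both strains were on the same sequencing lane, and every pair of libraries differed by more than sampling noise.

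A set of 16 transcripts marked S288c RNA. Each had at least 100 counts in all 15 S288c libraries outside the comparison and at most 1 in each of the 15 other RM11 libraries. In S288c libraries 1 to 5 the set summed to 4532, 4832, 5078, 7540 and 4478 CPM, here on unscaled library totals. In RM11 libraries 1 to 5 it summed to 28.4, 103, 5.15, 8.70 and 0. RM11 library 2 thus held 1.95% of the S288c mean and library 1 held 0.536%, against 0.0974% and 0.164% in libraries 3 and 4. The set had 179, 605, 33, 58 and 0 counts in RM11 libraries 1 to 5. A single Ty ORF, YML045W, held 132, 146, 33, 57 and 0 of them. The values of libraries 1, 3 and 4 thus rest mostly on that ORF, and how reads were divided between Ty ORFs is uncertain. Over the 6 transcripts of the set that are not Ty ORFs, the shares were 1.07% in library 2, 0.243% in library 1, 0.0192% in library 4 and 0 in libraries 3 and 5. ENA2, for example, had 17 counts in RM11 library 2 and 0 in the other RM11 libraries, against 2265 to 4316 in S288c. The share differed between transcripts. In RM11 library 2, NFT1 had 5 counts against 117 to 265 in S288c, and AI4 had 16 against 395 to 750. A level in RM11 of about 1% or less of that in S288c, seen in libraries 1 and 2, is therefore within these traces. For single transcripts the traces can be higher, so 1% is no upper limit. Leaving out RM11 libraries 1 and 2 together gave 644 calls, 278 higher and 366 lower.

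**Figure D2:**
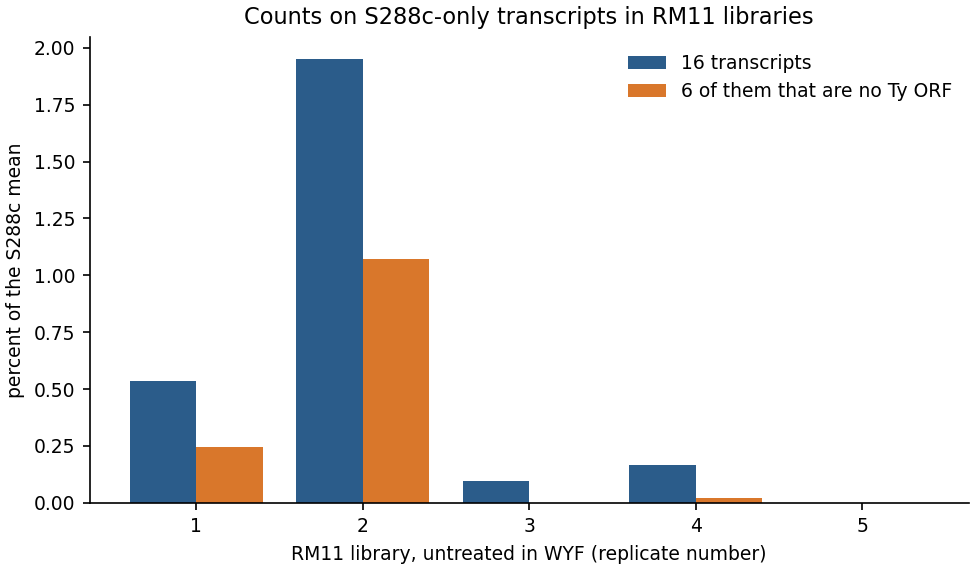
Counts on S288c-only transcripts in each RM11 library (x axis), as a percent of the S288c mean (y axis), for all 16 transcripts and for the 6 that are no Ty ORFs. Library 2 reaches 1.95% and 1.07%, library 1 reaches 0.536% and 0.243%, and library 5 has none.

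Transcripts nearly lacking in RM11 were the most extreme group. RM11 means were under 3% of the S288c mean for 84 called transcripts, of which 42 were Ty ORFs and 8 came from the mitochondrial DNA. A further 16 were nuclear genes with an annotated position and no near-identical copy. For 28 transcripts no RM11 library had more than 3 counts, and the reverse held for 1, SDD1.

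Ty elements are retrotransposons that move through an RNA copy, and their ORFs encode coat and polymerase proteins. Ty ORFs took 7.03% ± 0.376 of the counts in S288c and 0.330% ± 0.0746 in RM11 (mean ± SD, n = 5 each), a 21.3-fold difference with an exact permutation p of 0.00794, the smallest that 5 against 5 allows. Of 58 Ty ORFs tested, 47 were called lower and 6 higher in RM11, with a median of -7.02. Ty ORFs are near-identical to each other, so how reads were divided between single ORFs is uncertain, and only their sum is given weight here. YER160C, for example, had 452 ± 126 CPM in S288c and no counts in RM11. No bound on its fold change is given, because its reads cannot be told apart from those of other Ty ORFs.

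Genes with a single copy also dropped to trace levels. HO, the endonuclease of mating-type switching, had 44.5, 51.0, 56.8, 48.8 and 55.7 CPM in the 5 S288c libraries and 0.309, 1.48, 0.151, 0 and 0 CPM in the 5 RM11 libraries. NFT1, a putative multidrug transporter, measured 31.3, 27.9, 34.7, 33.5 and 31.1 CPM in S288c and 0.309, 0.823, 0, 0 and 0 CPM in RM11, in library order. BDS1, a sulfatase, was at 38.1, 39.5, 36.3, 41.1 and 38.1 CPM in S288c libraries 1 to 5 and at 0.464, 0.659, 0, 0 and 0 CPM in RM11 libraries 1 to 5. The highest RM11 value of each was in library 2, the one with the most counts on S288c-only transcripts, and without it the log2 fold changes went from -6.99 ± 0.35 to -8.52 (HO), from -7.03 ± 0.35 to -8.31 (NFT1) and from -7.31 ± 0.32 to -8.12 (BDS1). Fitted fold changes of such genes are thus no bounds. BDS1 and NFT1 lie close to chromosome ends, in runs of adjacent transcripts that were all under 3% of S288c, namely BDS1 and YOL163W on XV (6175 to 10106) and FLO10, NFT1 and YKR104W on XI (646356 to 657756). The DUP240 genes, a family of small membrane proteins, included PRM8 at -7.31 ± 0.39 (-9.24 without RM11 library 2), KTD1 at -4.99 ± 0.28 and the neighbours DFP2, too low to test, and PRM9 on I (186321 to 187732), both with at most 3 counts in any RM11 library.

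ENA2, a sodium pump of the plasma membrane encoded beside its near-copies ENA1 and ENA5, had 652, 539, 535, 546 and 593 CPM in the 5 S288c libraries and 0, 2.80, 0, 0 and 0 CPM in the 5 RM11 libraries. Summed over the 3 copies, the pumps were at -3.67 ± 0.088, so the family as a whole was lower in RM11. Reads of ASP3-1, the cell-wall asparaginase encoded by near-identical copies, averaged 80.1 ± 12.5 CPM in S288c and 0.554 ± 0.999 in RM11 (-7.15 ± 0.42, and -9.17 without RM11 library 2). Siderophore transporter ARN2, which takes up iron bound to chelators, reached at most 2 counts in any RM11 library against 16.2 ± 2.57 CPM in S288c, at least 33.9-fold lower.

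Of 17 tested transcripts of the mitochondrial DNA, 9 were called lower and 2 higher. The intron-encoded AI1, AI3, AI4, AI5_ALPHA, AI5_BETA, BI2 and SCEI, which are maturases or homing endonucleases, were among the 9. AI4 measured 116, 100.2, 105, 50.6 and 84.6 CPM in S288c and 0.618, 2.63, 0, 0.146 and 0 CPM in RM11, in library order. All but library 2 were below 1 CPM in RM11, and without that library its log2 fold change went from -7.04 ± 0.47 to -8.70. AI5_ALPHA and BI2 had at most 2 and 1 counts in any RM11 library, against means of 40.8 and 25.6 CPM in S288c. No bounds on their fold changes are given, because they share sequence with other transcripts. Of the cytochrome oxidase subunits encoded there, COX3 was higher in RM11 (1.12 ± 0.14), COX1 was at 0.98 ± 0.12 and COX2 at -0.12 ± 0.17. limma on log2(TPM + 1) called the same number lower (9) and none higher, so the call of COX3 was lost there. Exons of COX1 and COB are shared with their intron-encoded ORFs, so single values of these are uncertain. The summed share of all transcripts of the mitochondrial DNA was 0.192% ± 0.0204 in S288c and 0.158% ± 0.00840 in RM11 (exact permutation p = 0.0238, n = 5 each).

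Markers of mating type were mostly those of a cells in both strains. The MATa-specific genes STE2 (receptor of alpha-factor, 0.12 ± 0.067), BAR1 (protease that degrades it, 0.064 ± 0.064) and MFA2 (a-factor, 0.17 ± 0.13) were not called. STE2 ran from 366 to 457 CPM in S288c and 441 to 488 in RM11. The MATalpha pheromone genes MF(ALPHA)1 and MF(ALPHA)2 were too low to test, with CPM of 0 to 1.15 and 0 to 0.155. The other a-factor gene MFA1 was lower in RM11 (-1.19 ± 0.15), and the MATa gene ASG7 was called higher at the fold limit (1.02). Of the 4 MATalpha genes, the a-factor receptor STE3 and SAG1 were high enough to test. STE3, at 6.27 ± 1.06 CPM in S288c and 1.46 ± 0.267 in RM11, was lower in RM11 (-2.07 ± 0.19). SAG1 was at -0.62 and not called.

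Genes of respiration were higher in RM11. Of 38 tested genes of oxidative phosphorylation, 21 were called higher and none lower, 37 had a positive log2 fold change, and their median was 1.14. The tricarboxylic acid (TCA) cycle gave 7 higher and none lower of 18 (median 0.79), and mitochondrial ribosomal proteins 26 higher and none lower of 79 (median 0.80). The TCA, mitochondrial ribosome, mitochondrial DNA, biotin, chaperone and phospholipid lists were put together after values had been seen. Cytosolic ribosomal proteins, by comparison, gave 5 higher and 4 lower of 138 (median 0.25).

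CYC1, cytochrome c, which carries electrons to cytochrome oxidase, was at 7.09, 5.71, 7.87, 4.68 and 7.50 CPM in S288c libraries 1 to 5 and at 89.5, 84.8, 82.2, 86.1 and 89.1 CPM in RM11 libraries 1 to 5. Its log2 fold change was 3.73 ± 0.12 (SE, adjusted p = 8.22e-11). COX5A, a subunit of cytochrome oxidase used with oxygen, had 47.4, 52.1, 48.8, 46.0 and 52.5 CPM in the 5 S288c libraries and 253, 240.1, 272, 268 and 278 CPM in the 5 RM11 libraries. That gave 2.41 ± 0.065 (SE, adjusted p = 4.13e-11), with no overlap between strains in either gene. COX5B, its counterpart used when oxygen is scarce, went the opposite way, from 50.1 ± 5.81 CPM in S288c to 22.4 ± 2.46 in RM11 (-1.16 ± 0.11). COX5B was not in the list of 38 and is counted in the Hap1 and heme list. Those lists share genes, COX5A and CYT1 among them, so their counts are not separate results. Other members of the list of 38 with large differences were ATP14 of the ATP synthase (2.68 ± 0.075), COX7 of cytochrome oxidase (2.40 ± 0.28) and the external NADH dehydrogenase NDE1 (2.36 ± 0.078). In the TCA cycle, SDH1 (1.86 ± 0.074), SDH4 (1.64 ± 0.13) and SDH2 (1.38 ± 0.055), subunits of succinate dehydrogenase, were higher. The highest value of the TCA list was that of CIT2 (1.91 ± 0.13), a peroxisomal citrate synthase that is not part of the mitochondrial cycle. Among mitochondrial ribosomal proteins the called members lay close together, the top 5 running from 1.41 (MHR1) to 1.52 (MRPS8). limma on log2(TPM + 1) called 11 of the 79 higher.

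Hap1, which activates several of these genes, was examined next. HAP1 itself, the regulator, measured 358, 316, 357, 322 and 366 CPM in S288c and 143, 147, 145, 134 and 149.9 CPM in RM11, in library order. It fell in RM11, by 1.26 ± 0.06 on the log2 scale (SE, adjusted p = 3.51e-09), and the strains did not overlap. In the R64 annotation HAP1 lies on XII at 646415 to 650923 (plus strand), and the annotated Ty1 element at 650824 to 656743 covers the last 100 bases of its ORF. The junction in the S288c genome is shown here, with the first bases of the Ty1 repeat in capitals (RefSeq sequence, build R64, chrXII:650809-650838, plus strand).
HAP1 and Ty1 junction: tgttgaaattgatggTGTTGGAATAAAAAT
Reads of the S288c form of the ORF therefore include some Ty1 bases, and the sequence of the RM11 end was not analysed here.

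Of 24 tested genes of the Hap1 and heme list, 7 were called higher and 2 lower, with a median of 0.45. YHB1, the flavohemoglobin that removes nitric oxide, was at 45.8, 43.8, 45.5, 35.0 and 55.5 CPM in S288c libraries 1 to 5 and at 1522, 1509, 1376, 1509.9 and 1582 CPM in RM11 libraries 1 to 5. Its log2 fold change was 5.06 ± 0.11 (SE, adjusted p = 5.98e-12). No library of one strain reached the range of the other. CYB5, cytochrome b5, an electron donor in sterol and lipid synthesis, had 6.78, 8.33, 7.87, 4.93 and 6.64 CPM in the 5 S288c libraries and 53.3, 54.3, 48.0, 54.3 and 60.4 CPM in the 5 RM11 libraries. CYT1, cytochrome c1, averaged 199 ± 23.8 CPM in S288c and 707 ± 43.2 in RM11 (1.83 ± 0.083). The genes lower in RM11 were COX5B and HAP1. CYC7, the minor cytochrome c, was at 0.76 ± 0.30, and ROX1, a heme-dependent repressor, at 0.14 ± 0.069, neither called. HEM13, of heme synthesis, was at -0.16 ± 0.099.

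**Figure D3:**
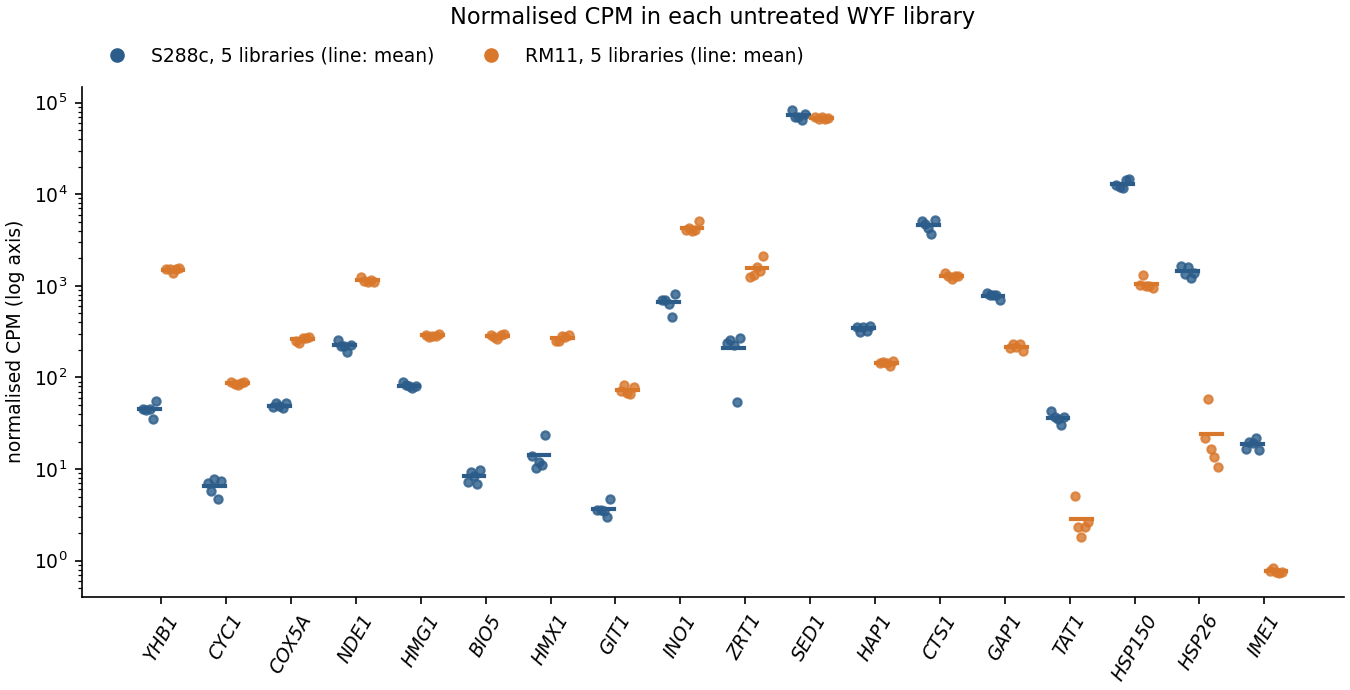
CPM in each of the 10 libraries (y axis, log axis; 1 point per library, line at the mean) for 18 genes (x axis), by strain. YHB1, CYC1 and BIO5 are higher in all 5 RM11 libraries, HSP26, TAT1 and IME1 lower in all 5, and SED1 overlaps between strains.

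Upstream sequences were searched for the Hap1 site, 2 CGG triplets with NNNTAN between them, on both strands in the 600 bases before each start codon (overlap with neighbouring genes was not removed). It was present in 31 of 5495 tested genes with a position (0.564%), in 3 of 24 of the Hap1 and heme list, in 2 of 38 of oxidative phosphorylation and in 5 of 257 called higher (1.95%), against 1 of 296 called lower (0.338%). The 3 of the Hap1 and heme list were CYT1, OLE1, the fatty acid desaturase, and HEM3, of heme synthesis. CYT1 is also counted among those of oxidative phosphorylation. The copies upstream of QCR6 and CYT1, subunits of the cytochrome bc1 complex, are printed because both genes were called higher. That of OLE1 is printed as one upstream of a gene that was not called (0.60 ± 0.097), as HEM3 was not (0.30 ± 0.099). Capitals mark the motif, and each window is on the gene's strand (build R64, RefSeq).
QCR6 (chrVI:225039-225068, minus strand): ggcggcctgCCGGTACATCCGtcacctaca
QCR6, the other copy (chrVI:224974-225003, minus strand): agcacgttcCGGGCATATCGGactggggcg
CYT1 (chrXV:446925-446954, plus strand): aatgggcggCCGGTATTTCCGgcggccaaa
OLE1 (chrVII:398053-398082, plus strand): ggcatgtccCGGGGTTAGCGGgcccaacaa
QCR6 was at 1.31 ± 0.12 and CYT1 at 1.83 ± 0.083. A looser form, the same triplets with NNNNNN between them, which includes the first, was present in 331 of 5495 (6.02%), in 27 of 257 called higher (10.5%) and in 16 of 296 called lower (5.41%). CYC1 and COX5A hold no copy of the stricter letters in this window.

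Ergosterol is the sterol of fungal membranes, and its synthesis uses oxygen and heme. Of 26 genes tested, 5 were called higher and 1 lower, with a median of 0.64 and a positive value in 20. HMG1, the HMG-CoA reductase that limits the pathway, measured 89.2, 81.9, 79.9, 76.1 and 79.9 CPM in S288c and 289.6, 278, 287, 286 and 302 CPM in RM11, in library order. The difference was 1.83 ± 0.057 (SE, adjusted p = 8.51e-11). ERG28, a scaffold of the pathway, was at 1.57 ± 0.29, the desaturase ERG5 at 1.17 ± 0.1, the heme enzyme ERG11 at 1.13 ± 0.079 and ERG13 at 1.07 ± 0.087. ERG4, of the last step, was lower at -1.06 ± 0.098. limma on log2(TPM + 1) called 3 of the 5, without ERG11 (0.99) and ERG13 (0.94).

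Biotin genes had the highest median of the lists in the plot of gene lists. Biotin is a cofactor of carboxylases that yeast takes up or makes from precursors, and yeast nitrogen base supplies it. Of 7 genes tested, 5 were called higher in RM11 and none lower, with a median of 2.40. BIO5, the transporter of a biotin precursor, was at 7.24, 9.29, 8.45, 6.83 and 9.86 CPM in S288c libraries 1 to 5 and at 287.8, 273, 264, 291 and 299 CPM in RM11 libraries 1 to 5. The log2 fold change was 5.11 ± 0.096 (SE, adjusted p = 1.16e-12), larger than that of any other called gene without a near-identical copy. BIO4 and BIO3, the enzymes encoded beside it on XIV with gaps of 52 and 221 bases, were at 3.47 ± 0.13 and 3.13 ± 0.057. BIO2, biotin synthase, reached 2.26 ± 0.066 on another locus, and the biotin importer VHT1 reached 2.40 ± 0.10. VHT1 rose from 71.7 ± 11.6 CPM in S288c to 378 ± 21.7 in RM11.

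Chaperones were lower in RM11 where they were called. Of 30 genes tested, 8 were called lower and none higher, with a median of -0.32. HSP26, a small heat-shock protein that binds unfolded proteins, had 1629, 1341, 1595, 1218 and 1394 CPM in the 5 S288c libraries and 21.6, 58.3, 16.7, 13.7 and 10.7 CPM in the 5 RM11 libraries. It fell by 5.89 ± 0.40 on the log2 scale (SE, adjusted p = 7.93e-08), and by 6.51 without RM11 library 2, which held the highest RM11 value. SSA4, a stress-induced Hsp70, measured 215, 193, 215, 269 and 218 CPM in S288c and 35.9, 45.8, 45.9, 37.98 and 31.6 CPM in RM11, in library order. HSP104, the disaggregase, averaged 1039 ± 149.8 CPM in S288c and 353 ± 45.8 in RM11 (-1.56 ± 0.11), and SSA1, whose near-copy is SSA2, was at -2.25 ± 0.07, or -1.07 for the sum of both. The other called members were HSP31 (-1.54 ± 0.11), SSE2 (-1.23 ± 0.09), SSE1 (-1.22 ± 0.083) and HSP82 (-1.01 ± 0.12). HSP42, another small heat-shock protein, was level at 0.0021 ± 0.14. General stress genes gave 1 higher and 6 lower of 40 (median -0.19). HSP26, SSA4 and HSP104 are counted in that list and among the chaperones, so the 6 are not all further genes. Genes of the RAS and protein kinase A pathway gave none called in either direction of 18, with 5 higher and 7 lower by adjusted p alone.

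The heat shock element searched, TTC, GAA and TTC with NN between neighbours, on both strands, lay upstream of 94 of 5495 genes (1.71%), of 14 of 30 chaperones and of 3 of the 8 called lower. HSP104 and SSE1 are shown, with the element in capitals (build R64, RefSeq).
HSP104 (chrXII:88313-88341, plus strand): atatatttTTCCAGAATTTTCtagaaggg
SSE1 (chrXVI:352441-352469, minus strand): gaagatgaTTCTAGAAGATTCcttttcca
Stress response elements, AGGGG on both strands, were present in 2194 of 5495 (39.9%). They lay upstream of 14 of the 30 chaperones and of 7 of the 8 called. Of the 40 general stress genes 33 held one, as did all 6 called lower, which include the chaperones HSP26, SSA4 and HSP104. Over all genes called, they were present in 124 of 257 higher (48.2%) and in 115 of 296 lower (38.9%).

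**Figure D4:**
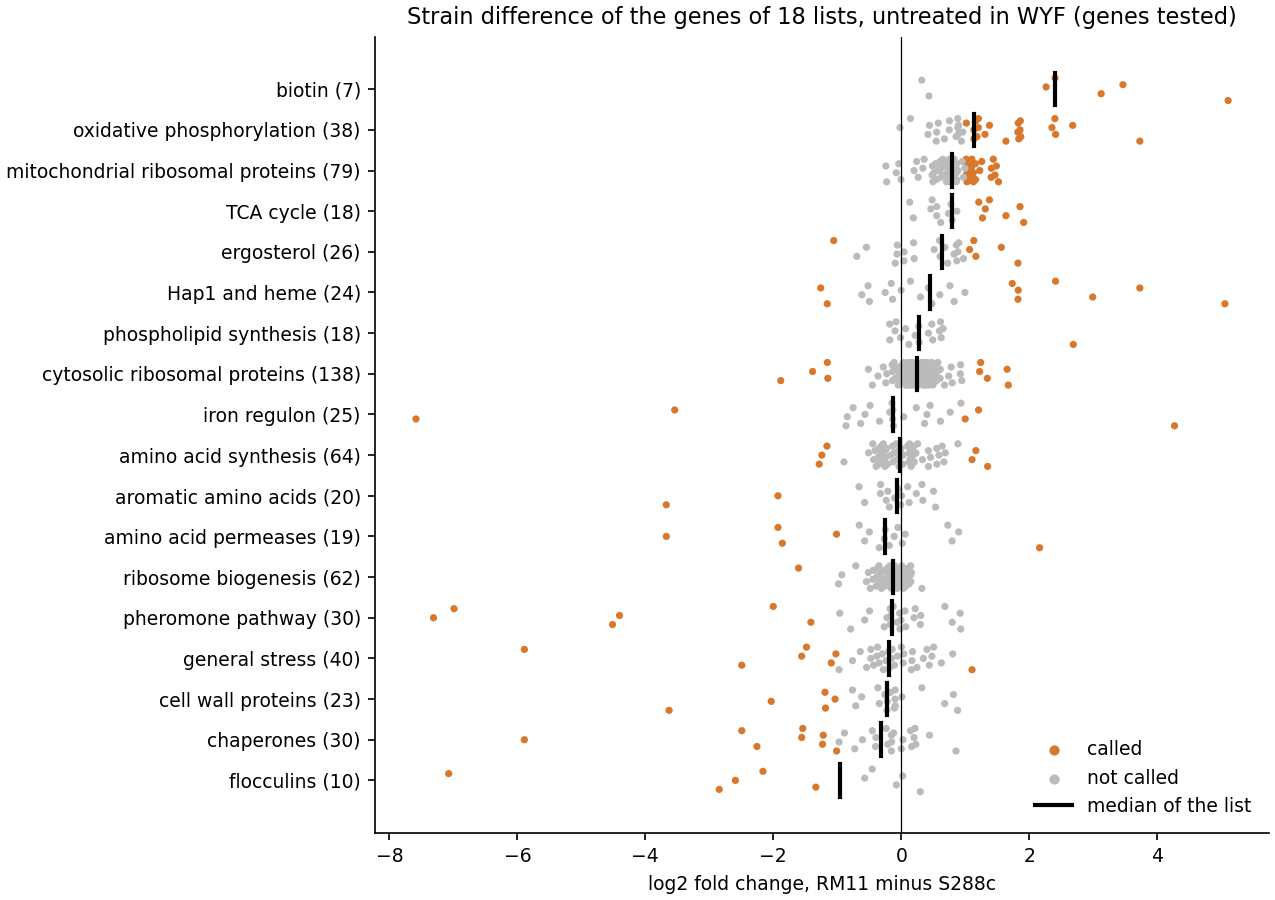
Log2 fold change of RM11 minus S288c (x axis) for the genes tested of 18 lists (y axis, number tested in brackets), 1 point per gene, coloured where called, with the list median as a bar. The medians of biotin (2.40) and oxidative phosphorylation (1.14) lie right of 0 and those of chaperones (-0.32) and flocculins (-0.95, or -0.45 without near-identical copies) left of it.

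In the lists of cell wall proteins and flocculins, the genes that were called were lower in RM11. Flocculins are adhesins that hold cells together, and 5 of 10 were called lower and none higher (median -0.95, or -0.45 over the 7 without a near-identical copy). FLO11, the adhesin of invasive growth, averaged 27.4 ± 4.44 CPM in S288c and 6.01 ± 2.18 in RM11 (-2.16 ± 0.22). FLO10 had at most 1 count in any RM11 library, at least 14.7-fold lower. FLO1, FLO5 and FLO9 share near-identical stretches, and their sum was at -2.22 ± 0.091. Of 23 genes tested in the cell wall list, which does not hold all wall proteins, 5 were called lower and none higher. HSP150, a heat-induced wall glycoprotein, was at 12666, 12014, 11625, 14213 and 14660.3 CPM in S288c libraries 1 to 5 and at 1023, 1321, 986, 999.8 and 942 CPM in RM11 libraries 1 to 5. Its share of all counts fell from 1.26% to 0.109%, with no overlap. TIP1 was at -2.03 ± 0.11 and PIR3 at -1.19 ± 0.13.

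Daughter separation was looked at because AMN1 is known to differ between these strains. CTS1, the chitinase that frees daughter cells, had 5075, 4708, 4267, 3693 and 5223 CPM in the 5 S288c libraries and 1389.6, 1271, 1183, 1274 and 1293 CPM in the 5 RM11 libraries. The change was -1.84 ± 0.099 (SE, adjusted p = 9.01e-09). Of 17 genes of daughter separation this was the only one called lower, and PCL9, a cyclin of early G1, was the one called higher (1.10 ± 0.10), a call that limma on log2(TPM + 1) did not make. AMN1, which represses separation, was at 0.42 ± 0.12 and not called. SED1, a wall protein and the most abundant transcript of both strains, took 7.01% ± 0.513 of the counts in S288c and 6.999% ± 0.195 in RM11 (exact permutation p = 0.976, n = 5 each). As a share of TPM, which divides by length, it was 5.71% ± 0.287 and 5.06% ± 0.218 (p = 0.0159, exact permutation). The 2 totals are unlike, as Ty ORFs took 7.03% of the counts but 1.19% of TPM in S288c. The paper reports a deletion in the RM11 allele of SED1, whose reads were counted on the S288c form, so its RM11 level is uncertain.

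Amino acid permeases showed a contrast at 2 adjacent genes. TAT1, a permease for tyrosine, tryptophan and branched amino acids, measured 42.7, 37.1, 35.3, 30.3 and 36.6 CPM in S288c and 5.10, 2.31, 1.81, 2.33 and 2.62 CPM in RM11, in library order. Its difference was -3.67 ± 0.21 (SE, adjusted p = 1.47e-08). BAP2, the branched-chain permease 883 bases away on II, was at 459.5, 404, 417, 423 and 397 CPM in S288c libraries 1 to 5 and at 125, 123, 104, 108 and 92.4 CPM in RM11 libraries 1 to 5. It differed by -1.93 ± 0.084 (SE, adjusted p = 1.76e-09). Neither gene's ranges overlapped between strains. GAP1, the general permease, was also lower (-1.86 ± 0.068), as was GNP1 by a margin at the limit (-1.01 ± 0.056), whereas PUT4, for proline, was higher (2.16 ± 0.11). TAT2, the high-affinity tryptophan permease, was at -0.19 ± 0.099 and AGP1, of broad range, at -0.50 ± 0.088. Enzymes of aromatic amino acid metabolism were close to level. Of 20 genes in that list, only TAT1 and BAP2 were called, and ARO1, ARO3, ARO4, ARO9 and ARO10 ran from -0.32 ± 0.093 to 0.34 ± 0.18. Of 64 genes of amino acid synthesis, 3 were called in each direction, led by SER3 (1.35 ± 0.13) and ARG7 (-1.28 ± 0.073), and GCN4, the regulator of these genes, was at -0.35 ± 0.087.

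Single nutrient genes differed strongly within lists that were balanced. ZRT1, the high-affinity zinc transporter, had 235, 257, 225, 53.6 and 271 CPM in the 5 S288c libraries and 1259, 1299, 1594, 1457 and 2129 CPM in the 5 RM11 libraries. S288c library 4 was far below the other S288c libraries. The difference was 2.90 ± 0.34 (SE, adjusted p = 1.36e-05), or 2.65 without that library, while ADH4, another target of the zinc regulator Zap1, was lower (-1.95 ± 0.10) and ZAP1 itself was at -0.28 ± 0.11. The zinc list gave 1 higher and 1 lower of 12. The Zap1 element, ACCTT and AAGGT with N between them, on both strands, lay upstream of 10 of 5495 genes (0.182%). Among the 12 zinc genes 2 held it, ZRT1 and ZRG17, the latter at -0.27 and not called. That of ZRT1 is shown in capitals (build R64, RefSeq).
ZRT1 (chrVII:20765-20793, plus strand): acatatttgACCTTGAAGGTcatggaaag
HMX1, the heme oxygenase that recovers iron, measured 13.9, 10.2, 11.9, 11.1 and 23.6 CPM in S288c and 247, 253, 286, 274 and 293 CPM in RM11, in library order. The iron list gave 3 higher and 2 lower of 25, the latter being ARN2 and FET4, a low-affinity iron importer (-3.54 ± 0.22). GIT1, a transporter of glycerophosphoinositol, was at 3.54, 3.57, 3.46, 3.03 and 4.71 CPM in S288c libraries 1 to 5 and at 71.2, 83.8, 68.5, 65.6 and 78.0 CPM in RM11 libraries 1 to 5. PHO84, the phosphate transporter, was lower (-1.17 ± 0.19), as was PHM8, a nucleotide phosphatase (-2.40 ± 0.22).

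Sugar genes gave 6 higher and 4 lower of 27. HXT1, the low-affinity glucose transporter, averaged 176 ± 39.5 CPM in S288c and 26.5 ± 4.35 in RM11 (-2.73 ± 0.17), and the galactokinase GAL1 8.18 ± 0.898 CPM in S288c and 1.99 ± 0.295 in RM11 (-2.02 ± 0.16). Maltose genes were higher, with the activator MAL33 at 2.05 ± 0.19 and the near-copies MAL32 and MAL12 at 2.70 ± 0.27 in sum. HXT6 was at 2.42 ± 0.54, but summed with its near-copy HXT7 it was at 0.63 ± 0.17, not called. INO1, the inositol-phosphate synthase at the head of phospholipid synthesis, had 702, 703, 640.0, 459 and 825 CPM in the 5 S288c libraries and 4029, 4266, 3946, 4075 and 5152 CPM in the 5 RM11 libraries. Of 18 phospholipid genes it alone was called, at 2.69 ± 0.14 (SE, adjusted p = 8.6e-09). Drug efflux genes were lower where called (3 of 18), namely QDR2 (-5.16 ± 0.25, and -5.78 without RM11 libraries 1 and 2), FLR1 (-1.51 ± 0.14) and AQR1 (-1.32 ± 0.08), and PDR5, the main efflux pump, was at -0.11 ± 0.087.

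Further genes among the 12 largest in each direction belonged to none of these groups. Higher in RM11 were YIR043C (4.15 ± 0.53, and 6.05 without S288c library 5), YER187W (3.66 ± 0.24), NRS1 (3.48 ± 0.19), the putative nitroreductase HBN1 (3.20 ± 0.12), the acetyltransferase HPA2 (3.20 ± 0.18) and MGA1, of heat-shock-factor type (3.19 ± 0.29). Lower were AAD6 (-5.38 ± 0.22), INA1 (-4.93 ± 0.18), SRD1 (-4.58 ± 0.25) and PRM5, a pheromone-regulated gene (-4.40 ± 0.24). IME1, the master activator of meiosis, measured 16.6, 19.5, 19.4, 21.8 and 16.3 CPM in S288c and 0.773, 0.823, 0.753, 0.728 and 0.749 CPM in RM11, in library order. The 5 RM11 libraries lay close together below every S288c library, at -4.58 ± 0.16 (SE, adjusted p = 3e-10). The meiotic kinase IME2 was at 0.0057 ± 0.13. RME1, a repressor of IME1, was at -0.024 ± 0.062. Laboratory marker genes were mostly level, with LEU2 at -0.028 ± 0.087, HIS3 at 0.03 ± 0.12 and LYS2 at -0.27 ± 0.059, and URA3 alone was called (-1.65 ± 0.077).

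Near-identical copies changed what was counted. Of 31 small groups of copies that held a called member, the summed counts were called in 15 and not in 16. TEF2, translation elongation factor 1 alpha, was at -6.62 ± 0.59, but TEF1 and TEF2 together were at -0.038 ± 0.08. RPS6A and RPS6B went opposite ways (-1.39 ± 0.074 and 1.66 ± 0.083), with a sum at 0.38 ± 0.065. COS5 and COS7 summed to 0.39 ± 0.088 although COS7 was at -4.07 ± 0.11. With all such copies summed, 502 of 5469 units were called, 254 higher and 248 lower. These pairs were named after their values were seen.

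Calls were more frequent near chromosome ends. Within 30 kb of a chromosome end, 41 of 263 tested transcripts were called higher (15.6%) and 59 lower (22.4%), against 216 (4.13%) and 237 (4.53%) of 5232 elsewhere. Of the 59, 29 had no near-identical copy and were no Ty ORF. Of the subtelomeric families, 5 of 10 COS genes were called lower and 2 higher, and 3 of 4 YRF1 helicases lower. How reads were divided between copies is uncertain for all 4 YRF1 genes and for 5 of the COS genes. The sums of COS1, COS2 and COS4 (-0.58 ± 0.076) and of COS5 and COS7 (0.39 ± 0.088) were not called, and the 5 COS genes without a near-identical copy had a median of -0.03, so no direction is given for these families.

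In YM the same strains, in other libraries on another lane, were compared by the same test. There 847 of 5608 transcripts were called (15.1%), 470 higher (8.38%) and 377 lower (6.72%). Of 5566 tested in both media, 582 were called in WYF and 833 in YM, and 448 were called in both, which is 77.0% of the WYF calls and 53.8% of the YM calls. Among the 448, 218 were higher in both, 229 lower in both and 1, SPI1, went opposite ways (-1.18 ± 0.084 in WYF and 1.89 ± 0.14 in YM). The medians in YM were 1.54 for oxidative phosphorylation, 2.50 for biotin and 0.38 for chaperones, beside 1.14, 2.40 and -0.32 in WYF. General stress genes had medians of 0.92 in YM and -0.19 in WYF. The same strain contrast was also fitted in the cells exposed to Cr41, in libraries of their own. There 907 of 5588 transcripts (16.2%) were called in WYF and 1477 of 5660 (26.1%) in YM. The median log2 fold change of oxidative phosphorylation genes was 0.91 and 1.67 in these, that of biotin genes 2.41 and 2.97, that of flocculins -1.35 and -2.39 and that of mitochondrial ribosomal proteins 0.55 and 0.77.

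Whether the strain difference itself differed between media was tested with the interaction over the 20 untreated libraries, and 278 of 5684 transcripts were called (4.89%), or 2017 (35.5%) by adjusted p alone. A negative value means that RM11 minus S288c was smaller in WYF than in YM. Of the 278, 66 were positive (1.16%) and 212 negative (3.73%), and of the 212, 173 had RM11 higher than S288c in YM by adjusted p. The medium cannot be told apart from the lane, but each strain difference lies within a lane. The interaction shares its WYF libraries with the comparison above.

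**Figure D5:**
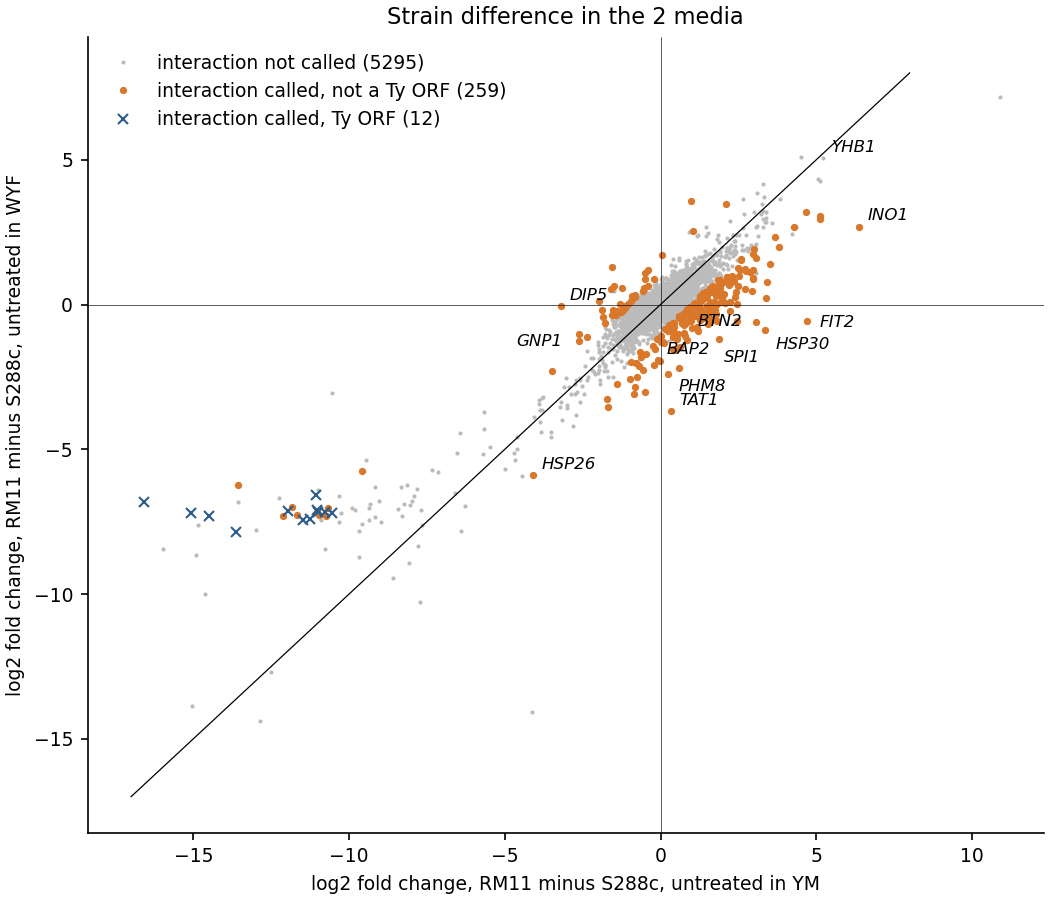
Log2 fold change of RM11 minus S288c in YM (x axis) against that in WYF (y axis), both untreated, 1 point per transcript tested in both, with the line of equal values. The 259 called interactions that are no Ty ORFs lie off the line, TAT1 and INO1 below it and DIP5 above it, and the 12 Ty ORFs lie above it at the lower left.

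Amino acid permeases were among the called interactions. TAT1 averaged 36.4 ± 4.41 CPM in S288c and 2.83 ± 1.30 in RM11 in WYF, but 1.86 ± 0.587 and 2.32 ± 0.512 in YM (interaction -4.03 ± 0.35). BAP2 averaged 420.1 ± 24.2 CPM and 111 ± 13.8 in WYF and 7.41 ± 1.53 and 7.07 ± 0.488 in YM (interaction -1.87 ± 0.16). Both strains thus had far more BAP2 RNA in WYF, whereas TAT1 was above its YM level in S288c and close to it in RM11. DIP5, the permease of acidic amino acids, was level in WYF (-0.051 ± 0.085) and lower in RM11 in YM (-3.20 ± 0.19), with an interaction of 3.13 ± 0.20. TAT2 had -0.19 ± 0.099 in WYF and -1.52 ± 0.19 in YM (interaction 1.32 ± 0.21). INO1 averaged 666 ± 134 CPM in S288c and 4294 ± 494 in RM11 in WYF and 94.0 ± 10.8 and 7825 ± 579.6 in YM, the strain difference being larger in YM (interaction -3.71 ± 0.17).

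Several stress genes had negative interactions. HSP30, a membrane heat-shock protein, was at -0.89 ± 0.30 in WYF and 3.35 ± 0.37 in YM (interaction -4.26 ± 0.57). BTN2, a sorting factor for misfolded proteins, was at -0.61 ± 0.20 and 3.06 ± 0.46 (interaction -3.69 ± 0.56). HSP26 was lower in RM11 in both media, at -5.89 ± 0.40 and -4.09 ± 0.18. HSP104 was lower in WYF (-1.56 ± 0.11) and was at 0.44 ± 0.21 in YM (interaction -2.01 ± 0.26).

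Several genes of the iron list had negative interactions as well. FIT2, a wall mannoprotein that helps to retain iron bound to siderophores, was at -0.57 ± 0.33 in WYF and 4.70 ± 0.20 in YM, with an interaction of -5.28 ± 0.43. Its relative FIT3 was at 0.77 ± 0.17 and 3.41 ± 0.12 (interaction -2.66 ± 0.23). The siderophore transporters ARN1 and SIT1 had interactions of -1.76 ± 0.22 and -1.57 ± 0.25, and the iron reductase FRE1 one of -1.53 ± 0.25. Of these genes ARN1 (1.21 ± 0.16) and FRE1 were called in WYF, the latter at the fold limit. FIT3, ARN1, SIT1 and FRE1 were named after their values were seen.

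The largest positive interactions were those of Ty ORFs and the subtelomeric YPR204W, whose RM11 values were low. YML045W had 132, 146, 33, 57 and 0 counts in RM11 libraries 1 to 5 in WYF, and YOL103W-A 0, 140, 0, 0 and 0. Without RM11 libraries 1 and 2 in WYF, 43 positive and 208 negative interactions were called. The interaction of YML045W then went from 9.73 ± 1.64 to 8.45 and stayed called. That of YOL103W-A went from 7.85 ± 2.87 to 0.12 and that of YPR204W from 7.29 ± 2.68 to 0.30, neither called, and those of BDS1, ASP3-1, YAR009C and YLR256W-A changed sign. Those of TAT1, BAP2, INO1 and DIP5 stayed called in every setting that left out a library.

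Of the wall and membrane genes that the study examined, FLO11 was called lower in RM11, as given above, whereas PST1 (-0.097 ± 0.068), SED1 and DET1 (0.32 ± 0.15) were not called and VBA5 was too low to test, with at most 7 counts in S288c and none in RM11. ECM33, a partner of PST1 in the cell wall, was at -0.17 ± 0.10. Of cell cycle genes, the G1/S regulator SWI4 was at 0.32 ± 0.10 and the co-repressor NRM1 at 0.079 ± 0.12. The cyclin-dependent kinase CDC28 was at -0.35 ± 0.085 and the checkpoint kinase RAD53 at -0.048 ± 0.12. None of these was called. The regulators AMN1, GPA1, ZAP1, IRA2, MKT1, FLO8 and GCN4, several of them known for alleles that differ between laboratory and wild strains, ran from -0.35 (GCN4) to 0.42 (AMN1), and HAP1 alone was called.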

How the data were processed

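Yeast RNA libraries were sequenced as paired ends, and per the labels' processing notes the authors ran Salmon 0.13.1 on an index of the S288c transcriptome. The deposited tables hold, for each of 6661 transcripts, its length in bases, its estimated count of reads and its TPM. The release of the transcriptome was not given in the sources used here. Estimated counts were rounded to whole numbers, low transcripts were dropped with filterByExpr, and the strains were compared with edgeR 4.0.16 (R 4.3.3) by quasi-likelihood tests with TMM factors and Benjamini-Hochberg adjustment. Only the 10 libraries compared entered the fit, and 5604 transcripts were tested. The common coefficient of variation was 12.6%. Single shares were compared by two-sided exact permutation tests. The medium interaction used the 4 untreated groups (20 libraries). limma 3.58.1 on log2(TPM + 1) and DESeq2 1.42.0 were alternatives, beside other factors, filters, thresholds and leaving out each library.

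Members and gene lists were chosen with earlier results of these data known. Genes named were, among those called with no overlap, no near-identical copy, no overlapping ORF and more than 3 counts in the lower group, the 12 highest and 12 lowest; the 8 most abundant of those at or under 3 counts in 1 strain; up to 5 called genes per list; and fixed regulators, markers and genes of the study. Others were named after their values were seen. Symbols and positions came from RefSeq R64, which matched 5993 transcripts, 99.92% of those with a coding sequence at equal length. Copies were transcripts alike at 95% or more over at least 100 bases. On simulated counts for this comparison (5579 genes), the test recovered 98 of 100 genes changed 2-fold and 97 of 100 changed 4-fold, without a fold limit. It also called 5 unchanged genes. Changed genes were drawn only from those above a minimum expected count, and the simulated spread came from the same fit. Recovery of transcripts with few counts was thus not tested. Same-numbered libraries did not deviate together (mean correlation -0.0092), so numbers were not taken as pairs. Library totals (4316137 to 7866046 counts) limit the precision of transcripts with few counts, and floors of 3 counts cover counting error only.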

Additional observations from a re-analysis of the deposited data

Results flagged for a closer look

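Values of 356 groups of 5 libraries (171 genes named in the text and measures of the libraries) were searched for a library far from the other 4, and 42 held one. Chance flags about 1 group in 20. RM11 library 2 was the one apart in 19 of the 42, S288c library 4 in 10, S288c library 5 and RM11 library 5 in 4 each, RM11 library 1 in 3 and RM11 libraries 3 and 4 in 1 each.

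RM11 library 2 was above the other RM11 libraries for many transcripts that are higher in S288c. Its Ty share was 0.463% against 0.287% to 0.304% in the others, and the S288c-only set reached 103 CPM. In CPM it stood at 16.6 for AI1, 2.63 for AI4, 0.329 for ARN2, 2.31 for ASP3-1, 0.165 for BI2, 2.80 for ENA2, 58.3 for HSP26, 1.48 for KTD1, 2.14 for PRM8, 91.2 for TEF2 and 0.165 for YKR104W. The same held for YAR009C (28.5), YLR256W-A (51.9), YOL103W-A (23.1) and YPR204W (13.7). HSP150, at 1321 CPM and 0.137% of its counts, lay above the 942 to 1023 CPM of the others. RM11 library 1 was highest for FLO10 (0.155), MF(ALPHA)2 (0.155) and TAT1 (5.10). For 5 of the 42, namely ARN2, BI2, FLO10, MF(ALPHA)2 and YKR104W, the value is 1 or 2 counts in a single library against 0 in the others, which sets that library apart by construction and is no evidence about it.

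S288c library 4 was below the other S288c libraries for ZRT1 (53.6 CPM against 225 to 271), COS5 (35.4), HEM3 (91.8), HEM13 (29.8), HSP31 (233) and TAT2 (92.8). It was above them for PDR5 (602), PRM9 (5.44), SSE2 (673.5) and the S288c-only set (7540 CPM). S288c library 5 was apart for HMX1 (23.6), PCL9 (32.6), PUT4 (93.0) and YIR043C (1.07). Among the RM11 libraries, library 5 was apart for ARG7 (66.4), FLO11 (2.25), FRE1 (28.3) and INO1 (5152), library 4 for ERG28 (3.35) and library 3 for GCN4 (115). What sets these libraries apart was not tested.

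The strain difference differed between WYF and YM, by the interaction test, for 35 of the genes named in the text. Among permeases the log2 interactions were -4.03 for TAT1, -1.87 for BAP2, 3.13 for DIP5, 1.58 for GNP1 and 1.32 for TAT2. Chaperones had HSP30 at -4.26, BTN2 at -3.69, HSP42 at -2.47, SSE2 at -2.11, HSP104 at -2.01, HSP26 at -1.82, SSA4 at -1.75, SSA1 at -1.69, HSP82 at -1.46 and HSP31 at -1.39. Iron genes had FIT2 at -5.28, FIT3 at -2.66, ARN1 at -1.76, SIT1 at -1.57 and FRE1 at -1.53. The other negative values were INO1 at -3.71, SPI1 at -3.09, PHM8 at -2.67, PIR3 at -1.73 and MGA1 at -1.48. NRS1 was at 1.35 and ENA5 at 1.20, under the fold limit without RM11 library 2 (0.98). The interaction of YML045W was 9.73 and stayed called without RM11 libraries 1 and 2 (8.45). Interactions that were not called without those libraries were 7.85 for YOL103W-A, 7.29 for YPR204W, 7.18 for YLR256W-A, 5.75 for YAR009C, 3.86 for ASP3-1, 3.62 for NFT1 and 3.41 for BDS1. The medium cannot be told apart from the lane.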

How the results depend on the processing

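The 604 calls (275 higher in RM11, 329 lower) became 396 when at least 10 counts were required in every library, with 178 lower, since that filter drops transcripts lacking in 1 strain. They became 3033 (1539 and 1494) without a fold limit and 223 (60 and 163) at a log2 fold change of at least 2. Leaving out each library in turn gave 604 to 645 calls, 271 to 297 higher and 331 to 363 lower, with at least 556 transcripts shared. DESeq2 called 593 and limma on log2(TPM + 1) 547. With the replicate number as a block, 606 were called (281 and 325), and the libraries with the same number were not paired in any other sense. Alternatives chosen after seeing the data were leaving out RM11 libraries 1 and 2 (644 calls) and summing near-identical copies (502). FRE1, GNP1 and ASG7, at the fold limit, lost their call in several settings.

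The interaction's 278 calls (66 positive, 212 negative) became 2017 without a fold limit (969 and 1048). Leaving out each library gave 251 to 307, 40 to 88 positive and 193 to 229 negative, the 40 being without RM11 library 2 in WYF. Without RM11 libraries 1 and 2, 43 were positive, and 4 interactions changed sign, BDS1 to -0.12, ASP3-1 to -0.86, YAR009C to -2.29 (-2.31 to 8.62 over the settings that left out 1 library, the lowest without library 2) and YLR256W-A to -1.98. With the replicate block 272 were called (54 and 218).

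The SED1 share differed by -0.65 percentage points as a share of TPM (exact permutation p = 0.0159), against -0.0113 as a share of counts, where leaving out each library gave -0.156 to 0.183. Leaving out each library moved the Ty share difference between -6.82 and -6.56 and that of the S288c-only set between -0.547 and -0.470 percentage points. The share of the S288c-only set in RM11 was 0.243% in library 1 and 1.07% in library 2 with Ty ORFs left out of the set. The cause of these shifts was not tested. Transcripts below a few counts per library cannot be ranked at this depth.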

Other observations

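Vitamin genes other than those of biotin were divided. Of 21 tested genes of thiamine and vitamin B6 synthesis, 4 were called higher in RM11 and 3 lower, with a median of 0.22. SNO1, of vitamin B6 synthesis, was higher (1.99), whereas SNO3 had no counts in any RM11 library and SNZ2 was at -4.44. Both have near-identical copies, and the sums over copies (SNZ2 with SNZ3, SNO2 with SNO3) were at 0.50 and 0.35 and were not called. Of 62 ribosome biogenesis genes, only RRP36 was called (-1.60), and none of 11 copper genes was called, with 4 higher and 3 lower at an adjusted p under 0.05 by edgeR.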
